A study of Mus musculus with 2 samples.

Results

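Myosins are motor proteins that move along or pull on actin filaments. The genes taken here are those whose symbol starts with Myh (heavy chains of conventional, class II myosin), Myl (its light chains) or Myo (unconventional myosins, which mostly work as single motors or dimers), followed by a digit, with pseudogene and opposite-strand entries left out. They came to 50 of the 53832 genes in the table and were picked by name alone. RNA-seq was done on 1 group of 2 libraries, replicates 1 and 2, of mouse oocytes that the titles name as small. Female embryonic ovaries had been cultured under an added pressure of 33.3 kPa, and cells positive for a Stella-CFP reporter had been sorted out of them by flow cytometry. Strain, age and the number of animals or cultures behind each library were left unstated, so the spread between the replicates may be technical. Both libraries come from the pressure culture, which means that levels are described and that no effect of pressure is measured.

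A class II myosin is built of a pair of heavy chains, each with a motor head and a long tail, and each heavy chain carries an essential and a regulatory light chain. Phosphorylation of the regulatory light chain switches the nonmuscle and smooth muscle forms on, and bundles of nonmuscle myosin II give a cell its cortical tension, its ability to round up and the ring that cuts off the polar body of an oocyte. Unconventional myosins carry vesicles and organelles, link membranes to the cortex and build protrusions. In mouse oocytes, myosin Vb together with Rab11a-positive vesicles is known to move material outwards along an actin network.

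The libraries held 5019462 and 5274338 expected counts, of which myosin genes took 0.226% and 0.239%. Levels are given as TPM, counts divided by gene length and scaled to the same sum in each library, since only levels per length can be compared between genes. A gene is called expressed where its TPM was 1 or more in each library, errors are SDs with n = 2, and paired values are those of replicates 1 and 2. All 10 oocyte markers on the list (Ddx4, Dazl, Figla, Nobox, Sohlh1, Ybx2, Gdf9, Zp3, Padi6 and Kit) were expressed, at a median TPM of 945. Markers of granulosa cells, stroma, endothelium, leukocytes, red cells and surface epithelium each held at most 0.00227% of the counts of a library. In these lists only Lgals7 (surface epithelium), at a TPM of 16.2 and 13.2, and Mfap4 (stroma), at 9.64 and 8.99, reached 5 in both libraries. Muscle lists, described below, held more of the counts. Skeletal muscle markers held a mean of 0.0463%, cardiac markers 0.00259% and 0.00258%, and smooth muscle and perivascular markers 0.002490% and 0.002503%. In bulk RNA a small number of cells of another type and a low level in all cells cannot be told apart.

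Of the 50 myosin genes, 26 were expressed, or 52% against 53.5% of protein-coding genes. With the limit set at a TPM of 10, the count was 17 members, or 34% against 37.9%. The median of log2(TPM + 1) over all 50 members was 1.56 and 1.25, beside 1.81 and 1.83 for all protein-coding genes. These shares stood near the background. Single members ranged from 3 light chains, Myl12b, Myl6 and Myl12a, at a mean TPM above 100, to 13 genes with no count in either library. A count of 0 allows up to 0.598 and 0.569 CPM (counts scaled to library size). The remaining 11 genes had some counts but missed the level set for expression.

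**Figure D1:**
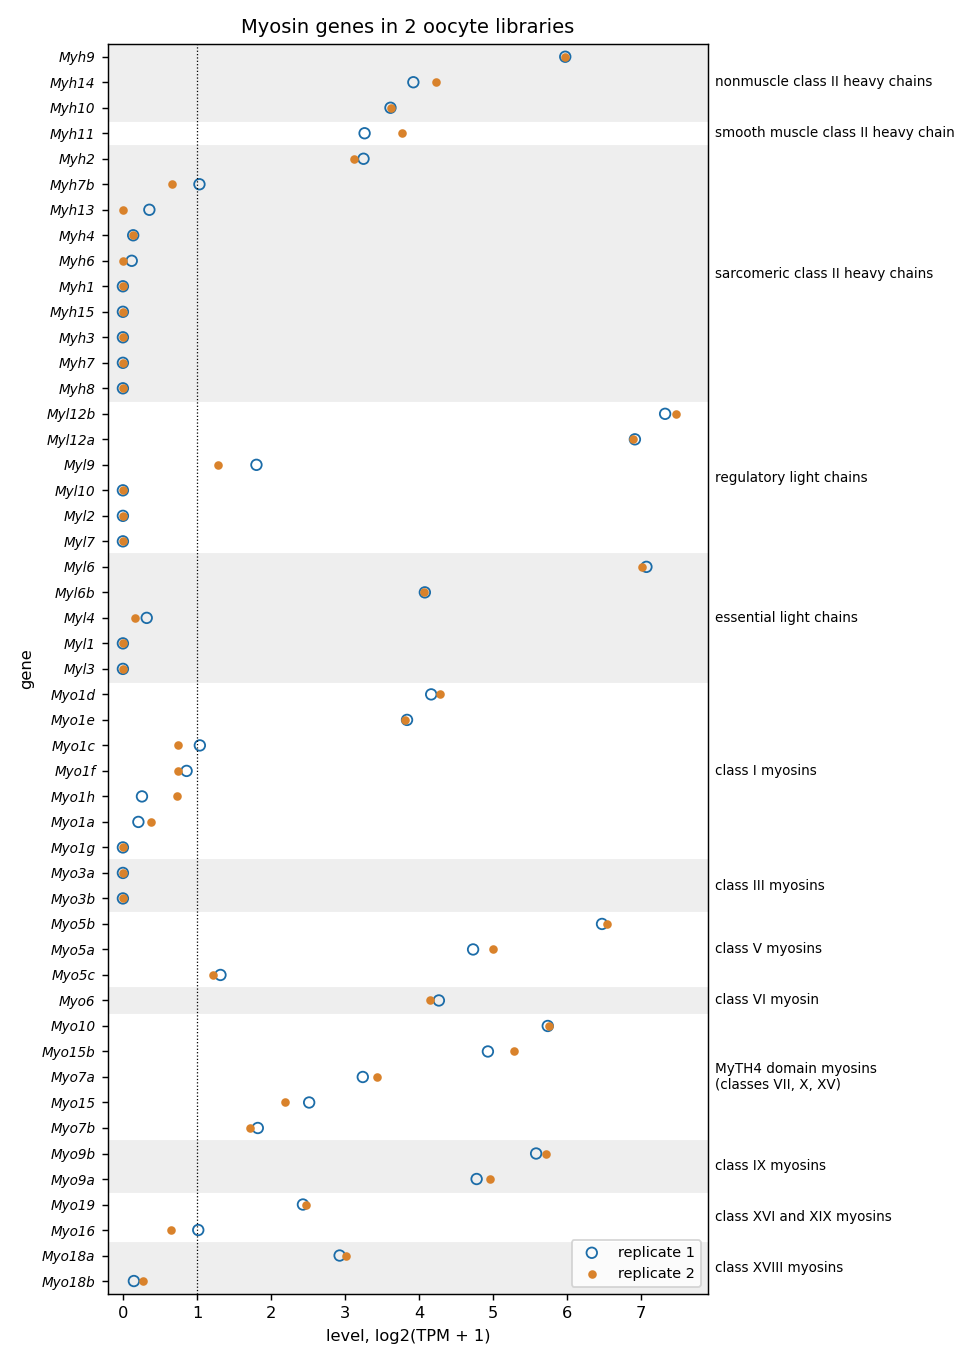
Level of the myosin genes described here in replicate 1 (open circles) and replicate 2 (filled circles), as log2(TPM + 1) on the horizontal axis, with genes grouped by role. The dotted line marks a TPM of 1. Within most roles 1 to 3 genes stand far to the right, led by Myl12b, Myl6, Myl12a, Myo5b and Myh9, while sarcomeric heavy chains other than Myh2 and Myh7b lie at or near 0.

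Among the heavy chains, nonmuscle genes led. Myh9, the heavy chain of nonmuscle myosin IIA (ENSMUSG00000022443, chromosome 15, 77760587 to 77842175, minus strand), had 1381.89 and 1430.01 counts and a TPM of 61.9 and 61.6. Myh14, the heavy chain of nonmuscle myosin IIC (ENSMUSG00000030739, chromosome 7, 44605803 to 44670843), stood at 14.2 and 17.7. Myh10, the heavy chain of nonmuscle myosin IIB (ENSMUSG00000020900, chromosome 11, 68691559 to 68816632), stood at 11.2 and 11.3. Myh9 was above both in each library, without overlap, and Myh14 was above Myh10 in each library. Per length, Myh9 made up 58.4% and 55.1% of all class II heavy chain RNA, Myh14 13.4% and 15.8%, and Myh10 10.6% and 10.2%. The level of Myh9 was 5.47 ± 0.0513 times that of Myh10.

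Counts of Myh9 and Myh10 were fractional, since reads that match both genes were split between them, and the counts of the pair added up to 1585 and 1643. Such reads can come from the longest stretch that is identical in both coding sequences, 122 bases long. It is shown here in capitals with 12 bases on either side, from GENCODE M21 transcripts on GRCm38, because it marks where the counts of these paralogues cannot be told apart by sequence:
Myh9: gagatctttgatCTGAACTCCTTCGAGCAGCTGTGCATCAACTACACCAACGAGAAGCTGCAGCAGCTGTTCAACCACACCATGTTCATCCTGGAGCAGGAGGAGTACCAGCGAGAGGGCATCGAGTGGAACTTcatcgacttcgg
Myh10: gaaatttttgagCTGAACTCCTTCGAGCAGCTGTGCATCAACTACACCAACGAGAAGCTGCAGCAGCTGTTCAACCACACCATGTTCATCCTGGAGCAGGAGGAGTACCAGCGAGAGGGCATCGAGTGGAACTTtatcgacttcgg
The stretch starts at base 1381 of 5883 coding bases in Myh9 and at base 1513 of 6042 in Myh10. Sharing was small over the whole genes: 0.680% of the 50-base words of the annotated Myh9 transcripts, and 0.689% of those of Myh10, also occur in transcripts of another gene.

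Myh11, the smooth muscle heavy chain (ENSMUSG00000018830, chromosome 16, 14194535 to 14291372), had 113 and 173 counts and a TPM of 8.61 and 12.7. Its range overlapped that of Myh10, and it took 8.13% and 11.3% of the class II heavy chain RNA. Markers of smooth muscle and perivascular cells were lower: 5 of 14 were expressed, none reached a TPM of 5 in both libraries, and all 14 together summed to a TPM of 16.8 and 16.3. The defining genes Acta2, the actin of smooth muscle, and Tagln had 10 and 0 counts and 6 and 0 counts. Myocd, which turns on the smooth muscle programme, had 0 and 1. Cnn1, a calponin that binds actin, was the highest of the list at 4.44 and 7.54, and like Myh11 it was higher in replicate 2. The 14 markers held 125 and 132 counts in all, some with more counts in replicate 2 and others with fewer. The part of smooth muscle cells in the level of Myh11 was not tested.

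Of 10 sarcomeric heavy chains, the forms that pull in striated muscle, only Myh2 was expressed in both libraries. Myh2, the heavy chain of fast type IIA fibres (ENSMUSG00000033196, chromosome 11, 67171027 to 67197517), had 104.95 and 98.98 counts and a TPM of 8.51 and 7.73. Its range overlapped that of Myo7a and lay below that of Myh11. Its neighbours in the cluster of skeletal muscle heavy chains on chromosome 11 were at or near 0. Myh4, the IIb form, had 1.05 and 1.02 counts, Myh13, the form of eye muscles, 3 and 0, and Myh1 (IIx), Myh3 (embryonic) and Myh8 (perinatal) none in either library. Myh7b had 12 and 7 counts, the cardiac Myh6 1 and 0, and its cardiac partner Myh7 and also Myh15 none.

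The Myh2 count deserves care, as 22.9% of the 50-base words of its transcripts also occur in other genes, among them 16.7% in Myh1, 10.2% in Myh8 and 8.47% in Myh4. The counts of Myh2 and Myh4 together came to 106 and 100. The longest run that these neighbours share is 146 bases long and starts at coding base 1543 in each. It is printed with capitals for the identical part, to show how closely the fast heavy chains resemble each other:
Myh2: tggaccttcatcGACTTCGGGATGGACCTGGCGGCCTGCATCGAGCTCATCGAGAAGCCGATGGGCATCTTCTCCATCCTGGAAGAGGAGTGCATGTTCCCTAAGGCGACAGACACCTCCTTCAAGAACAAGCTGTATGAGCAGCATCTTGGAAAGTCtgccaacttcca
Myh4: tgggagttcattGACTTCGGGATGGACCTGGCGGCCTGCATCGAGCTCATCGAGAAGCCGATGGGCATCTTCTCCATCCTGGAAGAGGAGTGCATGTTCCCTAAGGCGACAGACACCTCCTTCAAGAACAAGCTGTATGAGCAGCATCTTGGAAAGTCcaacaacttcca
An antisense RNA, 9430073C21Rik, overlaps 237 bases of Myh2 exons on the other strand and had 0 and 1 counts.

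Skeletal muscle markers were uneven around Myh2. Of 11 markers, 4 were expressed. These were the giant thin filament protein nebulin, Neb, at a TPM of 29.4 and 34.7, the crosslinker alpha-actinin 3, Actn3, at 24.7 and 30.0, the fast regulatory light chain Mylpf, whose symbol lies outside the naming rule, at 15.3 and 11.5, and titin, Ttn, at 3.13 and 3.83. The troponins Tnnt3, Tnni2 and Tnnc2 and the regulator Myog had no count in either library. Acta1, the actin of skeletal muscle, had 2.89 and 1 counts, Ckm, the muscle creatine kinase, 3 and 1, and Myod1 1 and 0. Of 9 cardiac markers, 1 was expressed, the calcium channel Ryr2 at 2.57 and 2.54, and Actc1 had 0 and 1 counts. Neb, Actn3 and Mylpf stood above Myh2 in each library and Ttn below it, while muscle actins and troponins were at or near 0. The part of muscle cells in the level of Myh2 was not tested.

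**Figure D2:**
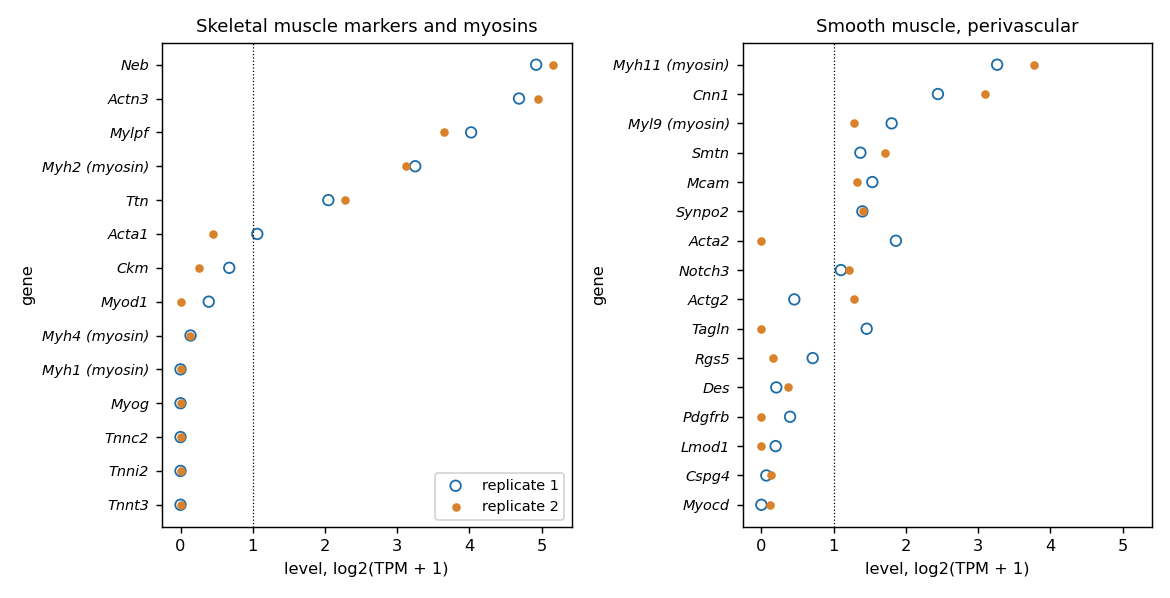
Level of skeletal muscle markers with Myh1, Myh2 and Myh4 (left) and of smooth muscle and perivascular markers with Myh11 and Myl9 (right), as log2(TPM + 1), in replicate 1 (open) and replicate 2 (filled). The dotted line marks a TPM of 1. Neb, Actn3, Mylpf and Myh2 are far from 0 and the troponins are at 0, and Myh11 is the highest of its panel in both libraries.

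Light chain RNA was more abundant per length than heavy chain RNA, and within the naming rule it came almost wholly from Myl12b, Myl6, Myl12a and Myl6b. Outside the rule, Gm49909, whose coding sequence is that of Myl12b, and Mylpf also stood at a mean TPM of 194 and 13.4. Regulatory light chains summed to a TPM of 281 and 296, essential light chains to 149.6 and 144 and class II heavy chains to 106 and 112. This gave 2.65 regulatory (SD 0.00400) and 1.35 ± 0.0869 essential light chains for each heavy chain. Both ratios lay above 1 in each library, but they depend on the length used: with the longest transcript in place of merged exons, the essential ratio was 0.985. These are ratios of RNA and say nothing of the protein.

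Myl12b and Myl12a, the regulatory light chains of nonmuscle cells, were both among the 3 members with the highest mean TPM. Myl12b (ENSMUSG00000034868, chromosome 17, 70973133 to 70990890) had 761.68 and 879.78 counts and a TPM of 159 and 177. Myl12a (ENSMUSG00000024048, chromosome 17, 70993656 to 71002878) had 694.84 and 710.83 counts and a TPM of 119.7 and 118. Myl9, the regulatory light chain most used in smooth muscle, had 5 and 3 counts, or 2.49 and 1.44. Myl2, the ventricular form, Myl7, the atrial form, and Myl10 had no count in either library. Of the regulatory light chain RNA within the naming rule, 56.6% and 59.7% was Myl12b, 42.5% and 39.8% Myl12a and 0.885% and 0.486% Myl9. These shares leave out Gm49909, at a TPM of 217 and 172, and Mylpf, at 15.3 and 11.5. With Gm49909 the summed TPM was 498 and 468 in place of 281 and 296, which lowers each share.

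The first 90 coding bases of Myl12b, Myl12a and Myl9 are printed from GENCODE M21 transcripts. They show how alike Myl12a and Myl12b are at the start of the coding sequence, and how Myl9 differs. Capitals mark bases that differ from Myl12b:
Myl12b: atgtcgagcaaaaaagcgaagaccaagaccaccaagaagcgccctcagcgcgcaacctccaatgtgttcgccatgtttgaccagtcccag
Myl12a: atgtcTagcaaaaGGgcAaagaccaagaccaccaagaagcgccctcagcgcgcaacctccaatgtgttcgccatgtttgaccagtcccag
Myl9: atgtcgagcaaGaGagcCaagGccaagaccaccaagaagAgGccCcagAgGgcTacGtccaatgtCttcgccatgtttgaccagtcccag
Over all 519 coding bases Myl12a was 96.5% identical to Myl12b, with 18 differences, and Myl9 86.3%, with 71. No 50-base word of Myl9 occurs in another gene. Over whole transcripts, 5.65% of the 50-base words of Myl12a occur in Myl12b and 16.2% in Gm49909. Of those of Myl12b, 7.07% occur in Myl12a and 25.4% in Gm49909.

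A further gene bears on both. Gm49909 (ENSMUSG00000117098, chromosome 17, 70974119 to 71002208), which GENCODE M21 itself names Myl12b, spans both genes on the same strand, covers 462 of the exon bases of Myl12a and 739 of those of Myl12b, and has a coding sequence identical to that of Myl12b. Its symbol lies outside the naming rule. It had 449.43 and 370.37 counts, or, with its short exons, a TPM of 217 and 172. Together with the copy Gm6517, at 10.04 and 5.02 counts, the counts of the 4 genes added up to 1915.99 and 1966, within 0.02 of whole numbers. Adding Gm49909 to the regulatory light chains raised their ratio to the heavy chains from 2.65 to 4.44 ± 0.363. How the counts were split among these genes moves the level of each but not the sum of their counts.

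**Figure D3:**
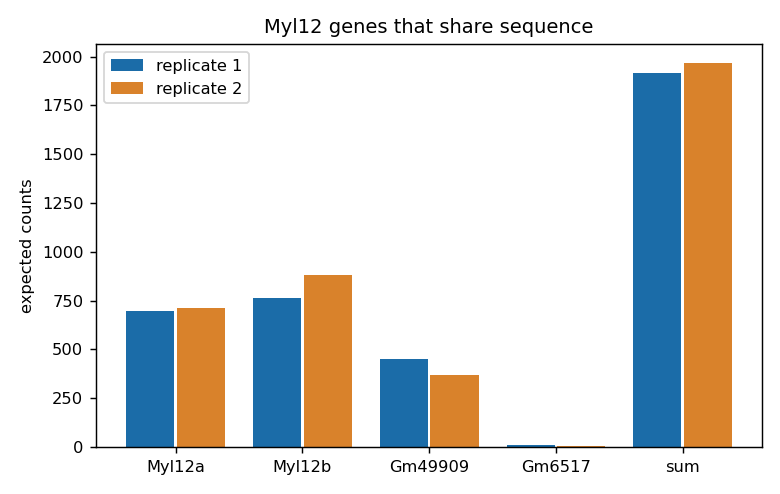
Expected counts of Myl12a, Myl12b, Gm49909 and the copy Gm6517, and their sum, in replicate 1 (left bars) and replicate 2 (right bars). Myl12b is higher and Gm49909 lower in replicate 2, while the sums, 1915.99 and 1966, lie close together.

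Among the essential light chains, Myl6, the form of nonmuscle and smooth muscle myosin (ENSMUSG00000090841, chromosome 10, 128490860 to 128494145), had 734.74 and 733.91 counts and a TPM of 133 and 128. Its neighbour Myl6b (chromosome 10, 128494157 to 128498685) stood at 15.9 and 15.7. Myl6 was 8.29 ± 0.155 times as abundant and made up 89.2% and 89.0% of the essential light chain RNA. Myl4, the atrial and embryonic form, had 2 and 1 counts, and Myl1 (fast skeletal muscle) and Myl3 (ventricle and slow muscle) had none. Of the 50-base words of Myl6, 8.38% occur in 5 other genes, among them Gm5526, at 9.59 and 20.03 counts, and Gm10080, at 7.97 and 3.06.

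**Figure D4:**
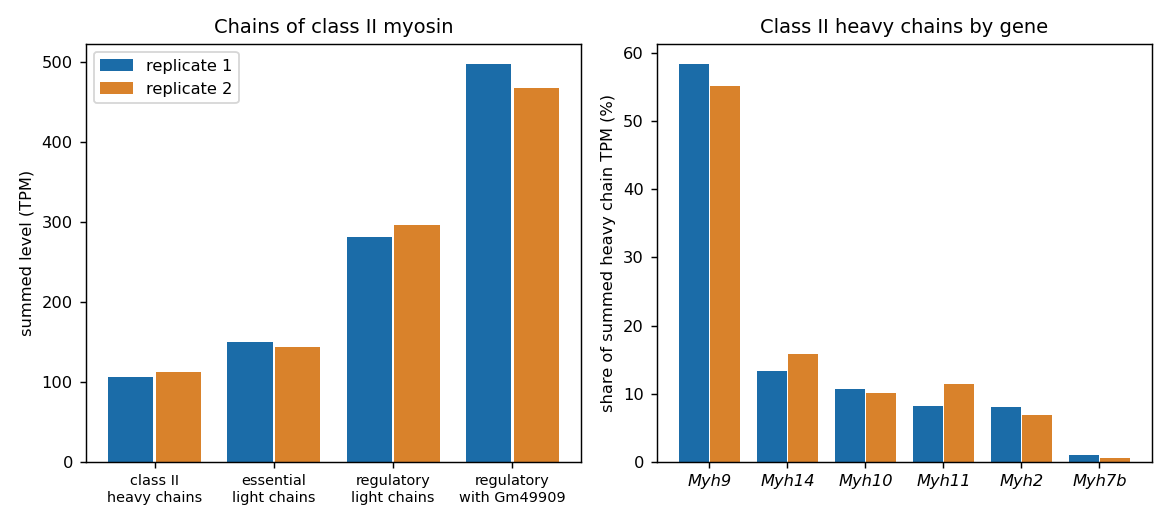
Left, summed TPM of class II heavy chains, essential light chains and regulatory light chains, the last also with Gm49909. Right, share of the summed class II heavy chain TPM held by each of 6 genes, in percent, with replicate 1 on the left and replicate 2 on the right of each pair. Myh9 holds 58.4% and 55.1%, and Myh14, Myh10, Myh11 and Myh2 hold between 6.91% and 15.8% each.

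Unconventional myosins summed to a TPM of 408 and 444 over 25 genes, of which Myo5b made up 21.5% and 20.7%. Myo5b, the motor of Rab11-marked recycling vesicles (ENSMUSG00000025885), had 1480 and 1614 counts and a TPM of 87.7 and 92.1. Its relative Myo5a, known for moving pigment granules, stood at 25.5 and 30.9, and Myo5c, a form of glandular epithelia, at 1.49 and 1.32. Myo5b was 3.21 ± 0.320 times as abundant as Myo5a, and the ranges of the 3 genes were separate. Among known partners of class V myosins, Rab11a stood at 216 and 212, the adaptor Rab11fip2 at 40.5 and 46.5 and the actin nucleator Spire1 at 52.9 and 50.3. The formin Fmn2, which builds the cytoplasmic actin network of the oocyte, was low, at 2.98 and 2.45, with 41 and 35 counts. Mlph, the adaptor of Myo5a on pigment granules, had 3 and 0 counts.

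Class I myosins are single-headed and tie membranes to actin. Myo1d stood at 16.9 and 18.5, and Myo1e, a motor of endocytic sites, at 13.3 and 13.1. A further 5 genes of the class were not expressed in both libraries. Myo1c had 12 and 8 counts, Myo1f 7 and 6, Myo1a, the form of the intestinal brush border, 1 and 2, Myo1h 2 and 7, and Myo1g, a form of leukocytes, none.

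Motors with long tails that build or sit in protrusions were led by Myo10, the motor of filopodia tips (ENSMUSG00000022272, chromosome 15, 25622525 to 25813673), at 52.4 and 52.8. Myo15b stood at 29.5 and 37.9. The hair cell motors Myo7a and Myo15 stood at 8.45 and 9.76 and at 4.72 and 3.58, and Myo7b, of the brush border, at 2.54 and 2.27. All 5 genes of this group were expressed. Both class IX myosins were expressed, Myo9b (ENSMUSG00000004677, chromosome 8, 71272714 to 71360713) at 46.9 and 51.3 and Myo9a at 26.4 and 30.0. Myo9b was above Myo9a without overlap.

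Myo6, the motor that walks towards the opposite end of actin filaments from the others, stood at 18.3 and 16.7. Among its endocytic adaptors, Gipc1 stood at 162 and 143 and Dab2 at 0.552 and 0.228, with 7 and 3 counts. Optn, Lmtk2, Tom1l2 and Tom1, on the list of partners described below, lay between these, from 24.6 to 49.7. Myo18a, a protein of the Golgi and of myosin II bundles, stood at 6.61 and 7.09, and its muscle relative Myo18b had 2 and 4 counts. With the longest transcript the mean TPM of Myo18a was 11.4 in place of 6.85. Myo19, the motor of mitochondria, stood at 4.40 and 4.54, below the proteins of the mitochondrial outer membrane Rhot1, at 47.7 and 52.3, and Rhot2, at 63.7 and 77.1, which recruit it. Myo16 had 14 and 8 counts, and the hair cell and photoreceptor motors Myo3a and Myo3b had none.

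Sorted by mean TPM, 13 of the 25 pairs of neighbours among the 26 expressed genes had ranges that did not touch and 12 overlapped. These ranges do not cover how counts were split with Gm49909, which moves the levels of Myl12b and Myl12a. With merged exon lengths and the counts as split, separate steps set Myl12b, Myl6, Myl12a and Myo5b apart from each other and from the rest. This order depends on the length used: with the longest transcript the mean TPM of Myl12a was 161 and that of Myl6 107, in place of 119 and 131, and Myo5b, at 102, was no longer set above all the other Myo genes. Overlapping neighbours included Myo9a with Myo5a, Myo6 with Myh14, and Myh11 with Myo7a and Myh10, so no order is read within these.

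Several members overlap other genes. The library kit keeps the strand, per the labels, but no source used here says whether the counting used it. Myo1h shares 1530 of its exon bases with Kctd10 on the other strand, which had 492 and 465 counts, so the 2 and 7 counts of Myo1h are uncertain. Myo19 overlaps Znhit3 over 277 bases, Myo9b overlaps Haus8 over 116, and Myl12a overlaps Myom1 over 207, each on the other strand and each a small part of the member's exons.

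Genes that act on myosin II were described from lists of regulators. The counts of expressed genes in these lists, here and in the next paragraphs, stand beside 53.5% of all protein-coding genes. Of 16 kinases that can act on the regulatory light chain directly or through its phosphatase, 13 were expressed, and the median TPM over the list was 19.6. Dapk3 was the highest at 104 and 99.3, and Pak1 stood at 51.5 and 67.7. Rock1 and Rock2, kinases that act on both the light chain and its phosphatase, stood at 53.8 and 55.7, within the range of Pak1, and at 21.5 and 21.9, and Cit, a kinase of the contractile ring, at 17.6 and 20.6. Mylk, the calcium-dependent myosin light chain kinase, was low, at 1.80 and 1.39 with 35 and 28 counts. Its muscle forms were Mylk2 and Mylk3, each at 0 and 2 counts, and Mylk4, at 0.

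Of 10 genes of myosin phosphatase and its inhibitors, 9 were expressed, and the list had a median TPM of 18.7. The catalytic subunit Ppp1cb stood at 33.3 and 31.3, and the targeting subunits Ppp1r12c at 30.7 and 28.4 and Ppp1r12a at 22.7 and 18.9. At the low end were Ppp1r14d with 5 and 2 counts and Ppp1r16b with 0 and 2.

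Of 12 chaperones and binding proteins of myosin, 7 were expressed, with 7.64 as the median TPM of the list. Hsp90ab1 and Hsp90aa1, general chaperones that also help fold the motor head, led at 2456 and 2421 and at 1599.8 and 1533. Unc45a, the myosin chaperone of nonmuscle cells, stood at 28.5 and 23.7. Its muscle counterpart Unc45b had 2 and 3 counts, S100a6 had 1 and 0, and S100a4, which binds the tail of Myh9, had none. All 9 tropomyosins and actin crosslinkers were expressed, with a median TPM of 14.5, from Actn4 at 161 and 153 and Actn1 at 27.6 and 31.3 down to Fscn1 at 8.37 ± 1.24 and Tpm2 at 2.19 and 2.11. Of 21 adaptors and partners of unconventional myosins, 19 were expressed, with a median TPM of 47.7 and 50.3, led by the light chains Dynll2, at 732 and 719, and Calm2, at 567 and 546. Dynll1, which dynein and class V myosins share, stood at 320 and 321.

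The replicates were then set against each other, to see how far each level repeats. For the 25 members with enough counts, each gene's counts in replicate 2 against replicate 1 were tested by an exact binomial test over all 12182 genes kept. This compares 2 libraries of the same treatment and not conditions. The other 25 members, Myl9 among them, had too few counts. At an adjusted p under 0.05, 4 of the 25 members differed, against 7.84% of all genes tested. All 4 were higher in replicate 2. At the same limit, 4.25% of all genes were higher there and 3.59% lower. None of the 4 reached a 2-fold difference, while 0.673% of all genes had both an adjusted p under 0.05 and a difference of 2-fold or more. An unadjusted p under 0.05 was found for 6 of the 25 members and for 20.7% of all genes, so this count was near the background. The median log2 ratio was 0.03 for the members and 0.00 for all genes.

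Myh11 had the largest log2 ratio among the members tested, 0.54 (SE from counting 0.17, adjusted p = 0.0285 in the exact binomial test), with 113 and 173 counts. Myo15b was higher by 0.35 (SE 0.09, adjusted p = 0.00182, exact binomial test), with 502 and 670 counts. Myo5a, with 653 and 820 counts, was higher by 0.26 (SE 0.08, adjusted p = 0.0130, exact binomial test). These p-values allow for counting noise alone. With the exact negative binomial test of edgeR, which allows for more spread, none of the 4 passed. Adjusted p in this test was between 0.648 and 1 with the spread estimated over all genes (a coefficient of variation of 7.31%, 0.312% of all genes called). With a preset 10% it was 1 (0.115% of all genes called). The estimate came from these same 2 libraries taken as 1 group, so a difference between them was counted as spread. The preset value was wider than the estimate.

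Among the members that did not pass, Myh9 had a log2 ratio of -0.02 (SE 0.05), Myh10 of 0.00 (SE 0.14) and Myo10 of 0.00 (SE 0.07). Myo15 had the lowest ratio, -0.41 (SE 0.21), with 104 and 82 counts. Myl12b had a ratio of 0.14 (SE 0.07, adjusted p = 0.246, exact binomial test). Gm49909, which is outside the naming rule, passed, with a ratio of -0.35 (SE 0.10, adjusted p = 0.0136, exact binomial test), and the 4 Myl12 genes summed had one of -0.03 (SE 0.05, adjusted p = 0.790, exact binomial test). The ratios of Myl12b and Gm49909 thus had opposite signs, and that of the sum was smaller than either.

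**Figure D5:**
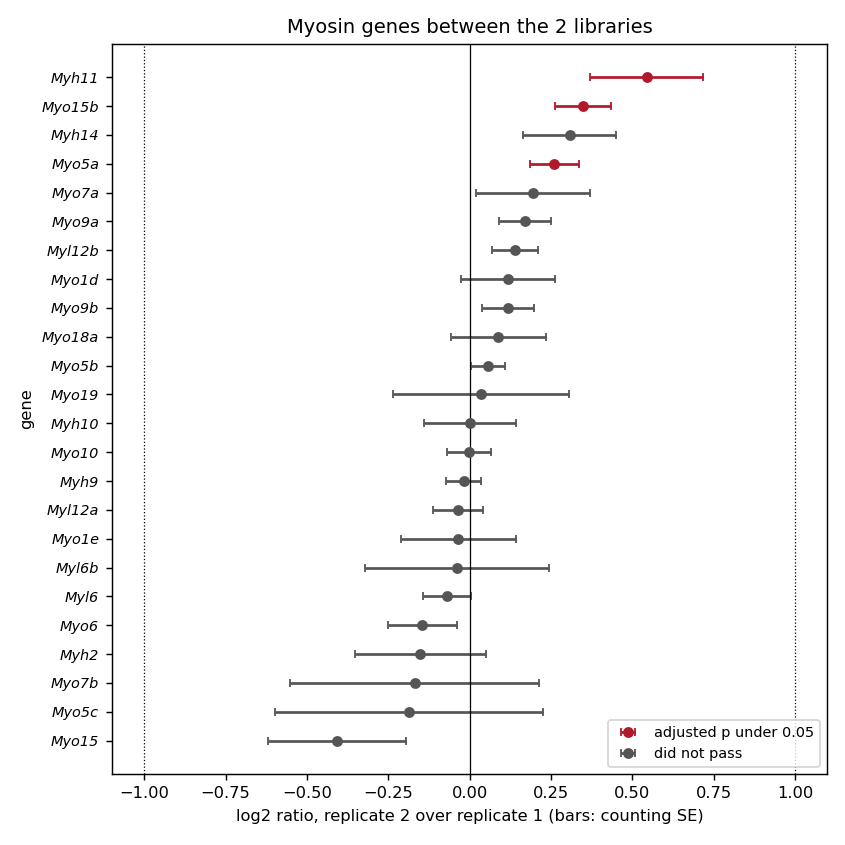
Log2 ratio of replicate 2 over replicate 1 for the myosin genes described here that had enough counts, with bars for the SE from counting noise. The dotted lines mark a 2-fold difference. Myh11, Myo15b and Myo5a pass the exact binomial test, and no gene shown reaches the dotted lines.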

How the data were processed

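The authors' deposited table holds expected counts per gene, which are estimated read counts scaled neither for depth nor for length. Reads that fit several genes are split among them in fractions. Reads had passed through fastp 0.20.0, STAR 2.7.7a and RSEM on GRCm38, per the submitters' processing notes. Annotation, settings and read length were not stated. A further 21 columns match no sample of the series and were not used. Gene lengths (merged exons), positions and transcripts came from GENCODE M21, which matched 53579 of 53832 gene IDs by Ensembl ID. TPM and CPM were computed from the expected counts.

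For the test between libraries, expected counts were rounded, genes were kept by filterByExpr of edgeR 4.0.16 and scaled by TMM, and a two-sided exact binomial test (scipy 1.17.1) with Benjamini-Hochberg adjustment was run over all genes kept. Log2 ratios used a prior count of 0.5. The test was tried on simulated counts that held counting noise alone. This trial cannot show how the test behaves with the wider spread estimated for these libraries. Intervals, floors (3 counts) and SEs cover counting error only, as PCR copies without molecular identifiers are not independent. Size factors of DESeq2 1.42.0, other lengths, thresholds and filters were alternatives. With 1 group of 2 libraries no condition can be compared. Some items are not reported here, though counts and sums over the members include them. Otherwise all members were open to naming. So were the 2 highest and 2 lowest genes of each list of regulators and the 2 highest of a marker list. A set fixed by name (such as Mylk, Rock1, Acta2 and Fmn2) was open too. Not all of these genes were named, while the oocyte markers were named in full. Mylk2, Unc45b, Gipc1, Optn, Lmtk2, Tom1l2, Tom1, Rhot1, Rhot2, Rab11fip2, Mylpf, Ttn, Ckm, Myod1, Myog, the troponins, near copies and overlapping genes were chosen after their values were seen. Myo15b was placed in its role group after the table had been read. The members and lists were chosen with earlier results of these data known.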

Additional observations from a re-analysis of the deposited data

How the results depend on the processing

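The number of expressed myosin genes, 26, stayed between 21 and 30 under every alternative run, which were the longest transcript, CPM, thresholds of 5 and 0.5 and each library alone. The median log2 level of 1.41 was 2.06 with CPM, 0.79 with a pseudocount of 0.1 and 3.99 over members with at least 10 counts. With the longest transcript the ratio of regulatory light chains to heavy chains was 2.60 and that of essential light chains 0.985. Without length scaling these ratios were 0.736 and 0.380, and among expressed members alone the regulatory ratio was 2.68. It was 4.44 with Gm49909, an alternative added after the data had been seen. The share of Myh9 was 65.7% with the longest transcript and 67.8% with CPM, and that of Myo5b among Myo genes was 22.0% and 20.4%. Without replicate 1 or 2 the count ranged from 26 to 29, the median from 1.25 to 1.56, the ratios from 2.65 to 2.66 and from 1.29 to 1.41, and the shares from 55.1% to 58.4% and from 20.7% to 21.5%. The longest transcript moved 2 of 26 expressed members, Myo18a among them, by over 1.5 times. No member had both an adjusted p under 0.05 and a 2-fold difference between libraries under any scaling, filter or pooling. With no fold minimum, 4 passed the exact binomial test. Both edgeR tests called no member, and the 4 had adjusted p up to 1. The test with the estimated spread was added after the data had been seen. A comparison of libraries has no value with a library left out. No paired analysis was possible because there is 1 group. Below about 10 counts, as in Myl9, depth limits what can be read.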
